A study of Mus musculus with 6 samples.

Results

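The spindle checkpoint and anaphase control genes described here are Bub1, Bub1b, Bub3, Mad2l1, Ttk, Cdc20, Espl1, Pttg1, Fbxo5 and Fbxo43. They were taken by platform gene symbol, 10 of the 18193 genes on the arrays, and 22 probe sets carried one of these symbols. A probe set is a group of short oligonucleotides on the array that reports 1 transcript region. The arrays held RNA of whole gonads from C57BL/6 mice, an inbred strain, with no allele or treatment named. The 6 groups are both sexes' gonads at 3 stages, namely 15.5 days postcoitum (fetal), day 1 after birth (neonatal) and 10 weeks of age (adult), with 1 array for each group. The study looked for genes that act in chromosome segregation during meiosis I, and here the adult testis and adult ovary are set against the dividing fetal gonads. How many animals each RNA came from is not stated. Because there are no replicates, differences have no test and are described by size, with a 4-fold ratio of scaled signals as the limit for a call.

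The spindle checkpoint holds a dividing cell in metaphase until every kinetochore is attached to microtubules. Ttk (also Mps1) and Bub1 are kinases that load checkpoint proteins onto unattached kinetochores, and Bub3 is the partner through which Bub1 and Bub1b (BubR1) are recruited. Mad2l1 (Mad2) and Bub1b bind Cdc20, the activator of the anaphase promoting complex (APC/C), a ubiquitin ligase, and keep it inactive. Once released, Cdc20 lets the APC/C destroy cyclin B and Pttg1 (securin), which frees Espl1 (separase) to cut cohesin. Fbxo5 (Emi1) inhibits the APC/C before mitosis, and Fbxo43 (Emi2) does so in eggs arrested in metaphase of the second meiotic division. In the gonad these genes serve the mitoses of germ cells and somatic cells as well as both meiotic divisions.

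Promoter sequences are shown for Bub1, Ttk, Cdc20 and Espl1, and for Mad2l1 and Fbxo5, which had the lowest adult over fetal ratios in testis. By the brightest probe set, adult over fetal ratios of Bub1, Ttk, Cdc20 and Espl1 had opposite signs in testis and ovary. Their testis ratios lay within 2 technical SD, as described below, and a second Bub1 probe set was lower in both adult gonads. Genes of this pathway are commonly switched on late in the cell cycle through a CHR element (TTTGAA) near a CCAAT box. The sequences are from RefSeq, build GRCm38.p6, and cover the 130 bases before the annotated start. The stretches lie at chr2:127831860-127831989 (minus strand), chr9:83834559-83834688 (plus strand), chr4:118437344-118437473 (minus strand), chr15:102296163-102296292 (plus strand), chr6:66535091-66535220 (plus strand) and chr10:5805466-5805595 (minus strand). Each is written 5' to 3' on the gene's strand, with TTTGAA and CCAAT in capitals on either strand (as TTCAAA and ATTGG where they read on the opposite one).
Bub1: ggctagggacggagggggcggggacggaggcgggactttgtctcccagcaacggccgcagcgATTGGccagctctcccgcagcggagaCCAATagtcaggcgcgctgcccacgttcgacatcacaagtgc
Ttk: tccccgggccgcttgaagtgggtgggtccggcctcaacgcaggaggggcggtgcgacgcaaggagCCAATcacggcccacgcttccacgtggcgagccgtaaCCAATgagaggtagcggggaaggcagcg
Cdc20: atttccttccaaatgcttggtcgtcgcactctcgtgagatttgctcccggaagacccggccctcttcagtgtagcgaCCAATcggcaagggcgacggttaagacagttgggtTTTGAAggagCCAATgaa
Espl1: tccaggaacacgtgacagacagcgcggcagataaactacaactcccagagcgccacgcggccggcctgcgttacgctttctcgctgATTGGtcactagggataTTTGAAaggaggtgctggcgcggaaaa
Mad2l1: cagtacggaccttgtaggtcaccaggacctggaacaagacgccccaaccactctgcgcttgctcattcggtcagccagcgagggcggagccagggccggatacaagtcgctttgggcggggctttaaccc
Fbxo5: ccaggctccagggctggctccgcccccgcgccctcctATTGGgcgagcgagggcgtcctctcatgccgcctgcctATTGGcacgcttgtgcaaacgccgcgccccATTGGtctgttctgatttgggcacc
In Cdc20 both elements stand close to the start, with TTTGAA 18 bases and CCAAT 53 and 8 bases before it, and in Espl1 they lie 27 and 44 bases before it. Ttk and Fbxo5 carry TTTGAA just after the start, at positions 8 and 4 on the opposite strand and outside the stretch shown, and hold 2 and 3 copies of CCAAT before it. Neither set of letters occurs in the window of Mad2l1, and Bub1 has CCAAT alone. The search covered windows of 300 bases, 250 before the start and 50 after it, on both strands, and the letters of the CHR element and the CCAAT box can share at most 1 base. Of the 9 members with a window, 6 held TTTGAA (all but Bub1, Mad2l1 and Pttg1) and 7 held CCAAT (all but Mad2l1 and Pttg1), while Fbxo43 had no entry. Among 27025 genes with a window, 20.2% held TTTGAA, 41.1% held CCAAT and 7.97% held both, against 6 of the 9 members with both. These matches are a description of letters and show no binding. Of the members with the lowest testis ratios, Fbxo5 has both sets of letters and Mad2l1 has neither. Any link between these letters and the ratios was not tested.

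All values are signals scaled so that every array has the same 2% trimmed mean, and signals under a floor of 75.3, the median of all scaled signals, were raised to it before a ratio was taken. A ratio against an array at the floor is a bound, written as at least N-fold. Of the 10 members, 8 were above the floor on all 6 arrays, Fbxo5 on all but adult testis, and Fbxo43 on none. Another 4 probe sets (1 of Bub1b and 3 of Bub3) were also below 75.3 on every array and give no ratio, which leaves 17 of 22. The brightest probe set on average stands for each gene, and levels are compared only within a probe set. The technical spread of 1 log2 ratio was read from pairs of probe sets of the same gene and covers no variation between animals. Probe sets of a gene can report different transcript regions, so this spread may also hold differences between transcripts. The value of 2 such SD was 1.23 for adult over fetal testis and 0.48 for adult over fetal ovary, so probe sets of a gene disagreed more in the adult testis comparison. The share of all genes beyond 2 such SD was not counted, and passing this limit is no test. The adult testis array also stood apart in the RNAs spiked in as hybridization controls, whose mean deposited signal was 1611 there, against 2014 to 3239 on the other 5 arrays. When arrays were scaled to these controls, the all-gene median of the log2 ratios was 0.50 in adult over fetal testis, against -0.37 with the main scaling. The Gapdh probe sets, a reading of RNA integrity, had a 3' over 5' signal of 2.36 in adult testis and 3.12 in neonatal ovary, while the other 4 arrays lay between 1.32 and 1.45. The same ratio for Actb did not follow it: adult testis was lowest at 1.81, and the rest ran between 2.91 and 3.78. The part of this in the member values was not tested. A scaling moves every gene above the floor by the same amount, so distances between members stay while the sign of small testis ratios can turn.

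Bub1, the checkpoint kinase, differed widely between the adult gonads by its brightest probe set. Its scaled signal in fetal, neonatal and adult ovary was 1923, 1032 and 417. In fetal, neonatal and adult testis it was 1487, 1017 and 2013. The adult ovary was therefore the lowest of the 6 arrays and the adult testis the highest, although adult testis and fetal ovary lay within 2 technical SD of each other. The second probe set of Bub1 gave another picture for testis, with 144 in adult testis and 261 in fetal testis, so the direction in testis depends on the probe set. It had 118 in adult ovary and 287 in fetal ovary, the direction of the first probe set. Between the adult gonads, ovary over testis, the second probe set had a log2 ratio of only -0.29.

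Ttk, the kinase at the top of the checkpoint, also had its highest signal in adult testis and its lowest in adult ovary. Its signal in fetal, neonatal and adult ovary was 597, 675 and 241. In the testis series it was 714, 614 and 1170. The 4 fetal and neonatal arrays lay close together, with the adult testis above and the adult ovary below them. Adult testis and its neighbour in the order, fetal testis, lay within 2 technical SD of each other. A further probe set of Ttk passed the floor only in fetal testis, at 80.3, and adds nothing.

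Bub1b, the pseudokinase of the checkpoint complex, varied little. Its signal in fetal, neonatal and adult ovary was 943, 860 and 658, and in the testis series 1223, 1154 and 607. Both adult gonads were at the low end of its order, and no pair of neighbours in that order differed by more than 2 technical SD. Its second probe set had the same direction in adult over fetal testis, with a log2 ratio of -0.78 against -1.01.

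Bub3, the kinetochore adaptor, had the narrowest range of the 9 members, with a ratio of 1.82 between its highest and lowest array. Its signal in fetal, neonatal and adult ovary was 2540, 2626 and 2193. In the testis series it was 2988, 3141 and 1723. Its second probe set had 487 in adult ovary and 393 in fetal ovary, the opposite direction from the first, so no direction is given for Bub3 in ovary.

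Mad2l1, which seizes Cdc20 when the checkpoint is on, had its lowest signal in adult testis. The ovary series was 1049, 1320 and 669 and the testis series 1663, 1757 and 430. Adult and fetal testis differed by 3.87-fold, just under the limit for a call. It has 1 probe set, so no second measurement stands beside it.

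Cdc20, the APC/C activator that the checkpoint restrains, showed the same split of the adult gonads as Ttk, with smaller ratios. Its signal was 2591, 2497 and 1729 in fetal, neonatal and adult ovary. In fetal, neonatal and adult testis it was 3495, 3320 and 4931. All 3 of its probe sets had the adult testis as the highest array and the adult ovary as the lowest. The log2 ratios of adult over fetal testis were 0.50, 0.58 and 0.24 by these probe sets, and those of adult over fetal ovary were -0.58, -0.62 and at most -1.16, the last against the floor. The representative probe set is of a type that can cross-hybridize, whereas the one with 0.58 and -0.62 is not.

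Espl1, the protease that cuts cohesin, had a signal of 433, 520 and 254 in the ovary series. In the testis series it had 538, 552 and 1086. The adult testis stood above the other 5 arrays and the adult ovary below them, as for Ttk, and here too the adult testis lay within 2 technical SD of its neighbour, neonatal testis. Pttg1, its inhibitor and chaperone, did not share the low signal in adult ovary, with 2936, 4632 and 4541 in the ovary series and 4296, 5101 and 5598 in the testis series. Its adult testis signal was the highest of the 6 arrays by all 3 of its probe sets. Its lowest array was fetal ovary by the representative probe set, whereas its dimmest probe set was lowest in neonatal ovary, with 107 against 139. In adult ovary over adult testis that dimmest probe set had a log2 ratio of -1.62, against -0.30 for the representative one. The 3 probe sets gave log2 ratios of 0.38, 0.44 and 1.25 for adult over fetal testis.

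Fbxo5, the APC/C inhibitor of interphase, had the widest range of the members, by its 1 probe set. Its signal in fetal, neonatal and adult ovary was 669, 267 and 304. In fetal and neonatal testis it was 702 and 448, and in adult testis it was 54.4, below the floor. The fetal gonads were the highest arrays for Fbxo5, and both neonatal gonads lay below them. Adult testis and neonatal ovary, its lowest arrays, also had the highest 3' over 5' signals of Gapdh, though not of Actb. The part of this in the Fbxo5 values was not tested. Fbxo43, its relative of the egg, was listed between 1.12 and 8.72 on the 6 arrays, all below the floor, also in adult testis and adult ovary. Its 1 probe set therefore gives no level, and no ratio is given.

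**Figure D1:**
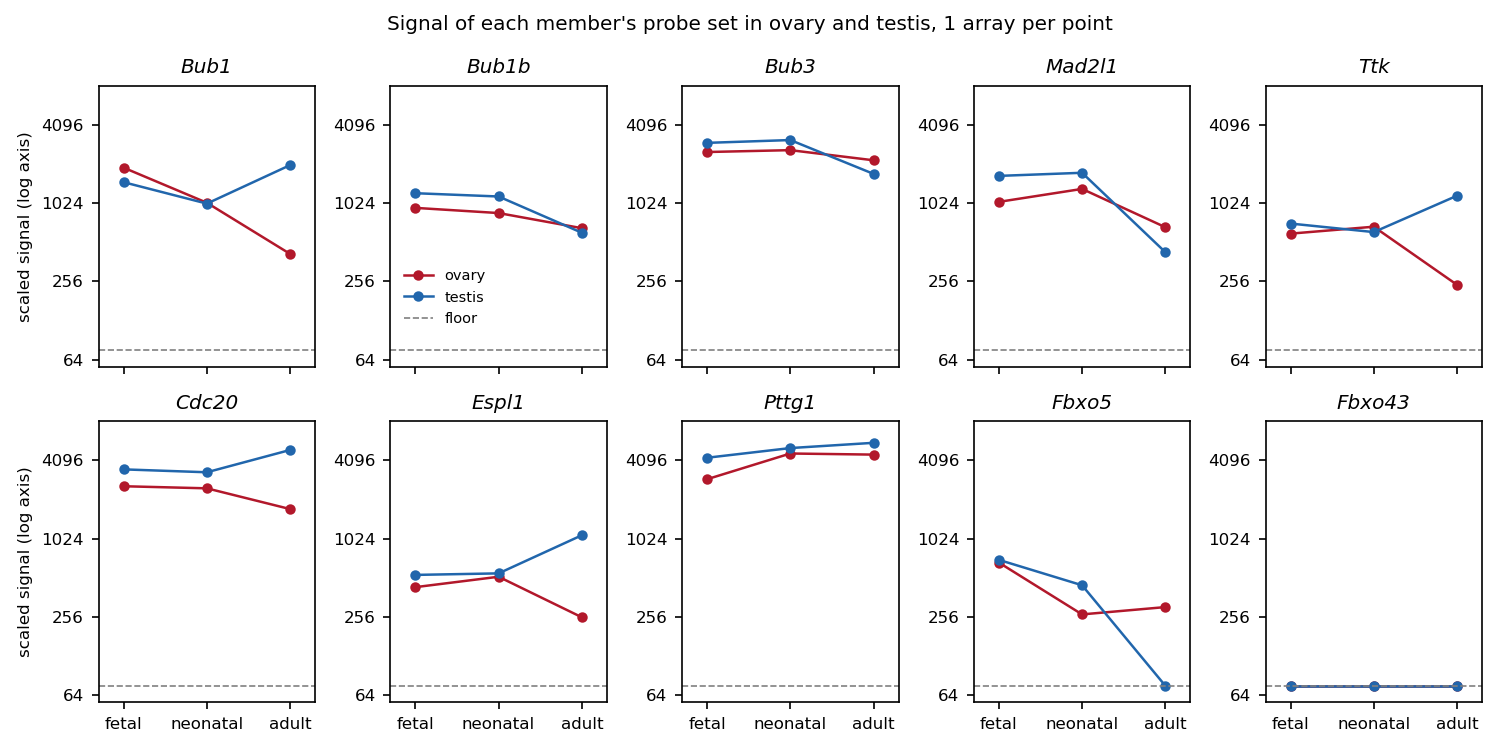
Scaled signal (log axis) of the representative probe set of each of the 10 members in ovary (red) and testis (blue) at the fetal, neonatal and adult stage, 1 array per point, with values below the floor of 75.3 (dashed) drawn at it. Bub1, Ttk, Cdc20 and Espl1 separate in the adult gonads, with Ttk at 1170 in adult testis and 241 in adult ovary, while Fbxo5 reaches the floor in adult testis.

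In adult testis against fetal testis, the members spread apart. Fbxo5 was at least 9.33-fold lower in adult testis and was the 1 member called lower, of 10. No member was called higher. Across all genes 11.1% were called lower and 10.3% higher, so 1 of 10 is near the background. Mad2l1 was 3.87-fold lower, and Bub1b and Bub3 had log2 ratios of -1.01 and -0.79. Against them Espl1, Ttk, Cdc20, Bub1 and Pttg1 had log2 ratios of 1.01, 0.71, 0.50, 0.44 and 0.38. Only Fbxo5 and Mad2l1 lay beyond 2 technical SD. Scaling to the hybridization controls gave Bub3 a log2 ratio of 0.19 and Bub1b one of -0.03, so no direction is given for Bub3 or Bub1b, while Mad2l1 kept its sign at -0.97 and Espl1 came just under the limit for a call. For Bub1 the mean of its probe sets gave -0.21. Espl1 and Fbxo5 differed by at least 4.24 on the log2 scale in this comparison.

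The 9 members with a ratio had a median log2 ratio of 0.38, against -0.37 for the 14426 genes above the floor on at least 1 of the arrays. Of those genes 78.6% had a lower ratio than Espl1 and 3.26% a lower ratio than Fbxo5. Against fetal ovary in place of fetal testis, which shares the adult testis array, the log2 ratios were 1.33 for Espl1, 0.97 for Ttk, 0.93 for Cdc20, 0.93 for Pttg1, 0.07 for Bub1, -0.56 for Bub3, -0.64 for Bub1b, -1.29 for Mad2l1 and at most -3.15 for Fbxo5. There, too, 1 member was called lower (Fbxo5) and none higher, with 11.3% of all genes lower and 10.5% higher. Under hybridization control scaling Espl1 was called higher as well, and Bub1b and Bub3 turned to 0.37 and 0.45.

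In adult ovary against fetal ovary, 7 of the 9 members with a ratio had a lower signal, Pttg1 had a higher one, and the probe sets of Bub3 disagreed. Bub1 was 4.62-fold lower in adult ovary and was the 1 member called lower, where 1.68% of all genes were. None was called higher, against 2.02% of all genes. Ttk was 2.48-fold lower, Fbxo5 2.20-fold, Espl1 1.71-fold, Mad2l1 1.57-fold, Cdc20 1.50-fold and Bub1b 1.43-fold. These 6 and Bub1 lay beyond 2 technical SD. Pttg1 had a log2 ratio of 0.63, also beyond it, but its dimmest probe set had 0.18, within it. Bub3 had a log2 ratio of -0.21. All of these kept their sign under hybridization control scaling, with Bub1 at -2.05 and Ttk at -1.15. With all probe sets of a gene averaged, Bub1 missed the limit for a call, and Bub3 had a log2 ratio of 0.02.

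The median log2 ratio of the members was -0.65 in this comparison, against -0.05 for 12900 genes above the floor. Only 1.83% of those genes had a lower ratio than Bub1, and 5.95% a lower ratio than Ttk. For Bub1b, the smallest decrease beyond 2 technical SD, the share was 21.2%, so that limit alone does not set a member apart. Set against fetal testis, which shares the adult ovary array, the log2 ratios were -1.84 for Bub1, -1.57 for Ttk, -1.31 for Mad2l1, -1.21 for Fbxo5, -1.08 for Espl1, -1.02 for Cdc20, -0.90 for Bub1b, -0.45 for Bub3 and 0.08 for Pttg1. No member was called there in either direction, where 1.47% of all genes were lower and 1.68% higher.

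**Figure D2:**
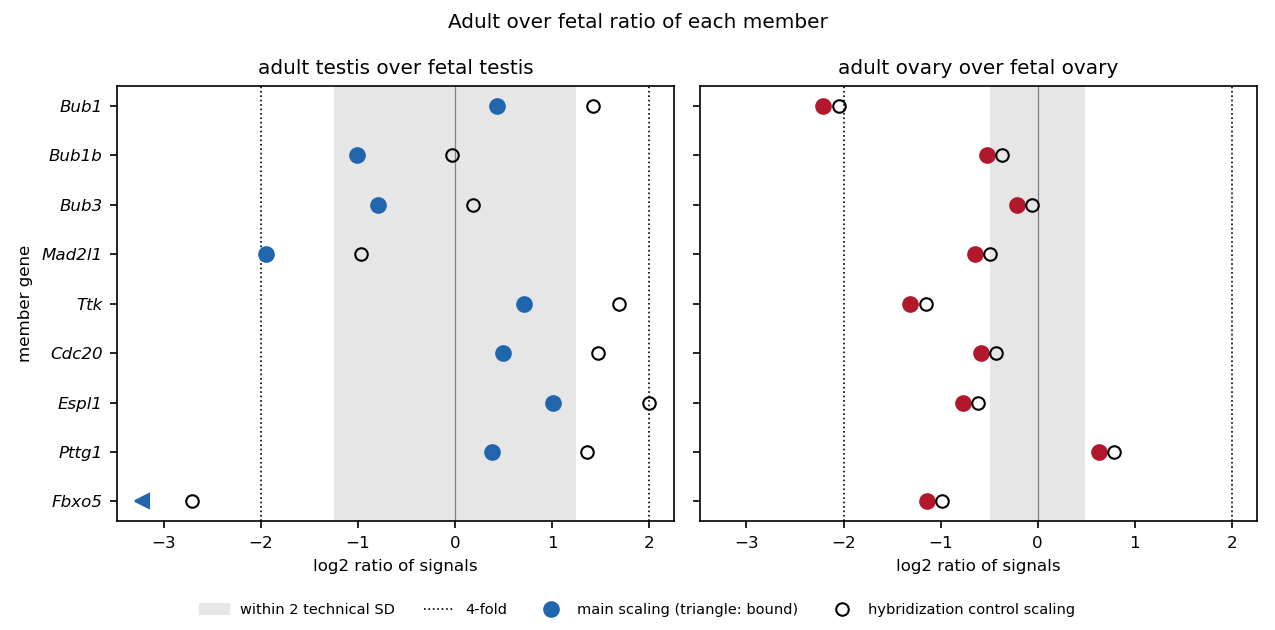
Log2 ratio of signals (x axis) of 9 members (y axis) for adult over fetal testis (left) and adult over fetal ovary (right), with filled symbols for the main scaling (the triangle is a bound), open circles for scaling to the hybridization controls, grey bands for 2 technical SD and dotted lines at 4-fold. Control scaling moves the testis ratios up together and turns the sign of Bub3 there, from -0.79 under the main scaling to 0.19, whereas every ovary ratio keeps its sign.

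**Figure D3:**
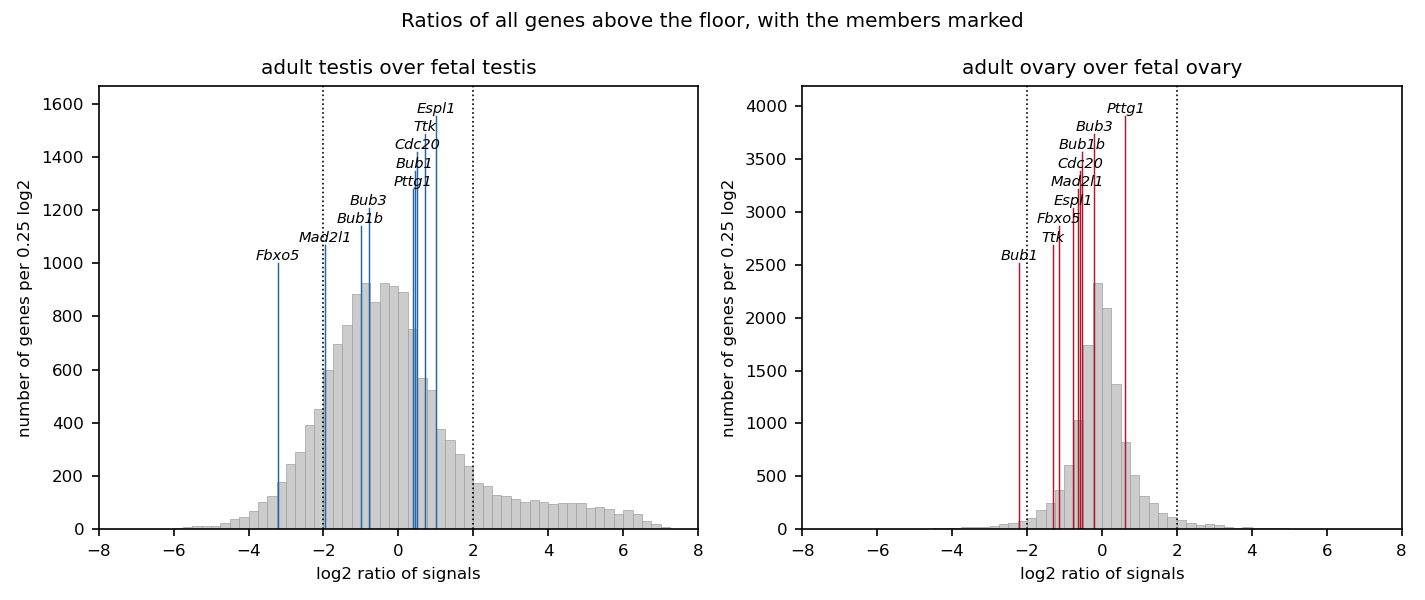
Number of genes per 0.25 log2 ratio (grey bars) among genes above the floor on at least 1 of the 2 arrays, with the 9 members marked, for adult over fetal testis (left) and adult over fetal ovary (right). In testis the members spread from Fbxo5 at -3.22 to Espl1 at 1.01 inside a wide distribution of all genes, and in ovary most of them lie left of a narrow one, with Bub1 at -2.21.

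In the fetal gonads themselves no member was called between ovary and testis, where 0.192% of all genes were higher in ovary and 0.44% lower. Bub1 had a log2 ratio of 0.37 in fetal ovary over fetal testis and the other 8 lay between -0.66 (Mad2l1) and -0.07 (Fbxo5). Bub1 above and Mad2l1, Pttg1, Cdc20 and Bub1b below lay beyond 2 technical SD (0.31). The second probe sets of Bub1 and Bub1b had 0.14 and -0.22, within that limit. The other probe sets of Pttg1 (-0.91 and -0.56) and Cdc20 (-0.54 and -0.34) lay beyond it. Of the 12595 genes above the floor on at least 1 of these arrays, 11.8% had a lower ratio than Bub1b and 88.1% a lower ratio than Bub1. As background, female germ cells have entered meiotic prophase by this age, whereas male germ cells have not.

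Between the adult gonads, ovary over testis, Ttk, Bub1 and Espl1 were called lower in ovary, by 4.86-fold, 4.83-fold and 4.28-fold, and Fbxo5 higher by at least 4.03-fold. Across all genes 10.9% were lower in adult ovary and 11.9% higher, so 3 of 10 members lower and 1 of 10 higher stand beside those shares. Cdc20 was 2.85-fold lower in adult ovary, and Pttg1, Bub1b, Bub3 and Mad2l1 had log2 ratios of -0.30, 0.12, 0.35 and 0.64, of which the last 3 were negative under hybridization control scaling. The second probe set of Bub1 had a log2 ratio of -0.29 between the adult gonads, so the call of Bub1 rests on 1 probe set. With the mean of all probe sets Ttk had -1.14 and Bub1 -1.28, and Espl1 alone stayed called lower. For Ttk and Espl1 this mean is no second measurement. The further probe set of Ttk is below the floor in both adult gonads and only shrinks the ratio, and Espl1 has 1 probe set. With the floor at the 75th percentile Ttk and Espl1 lost their calls and Bub1 alone stayed called lower. The call of Fbxo5 lies at the limit, with 1.94 under quantile normalization and 1.63 under hybridization control scaling, and Fbxo5 is at the floor in both adult gonads when the floor is at the 75th percentile.

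Most members differed less between the neonatal and fetal gonads, with Fbxo5 and Bub1 lower in the neonate in both sexes. In neonatal over fetal testis none was called, where 0.357% of all genes were higher and 0.44% lower, and the ratios ran between -0.65 (Fbxo5) and 0.25 (Pttg1) on the log2 scale. Fbxo5 and Bub1 (-0.55) lay beyond 2 technical SD there. In neonatal over fetal ovary none was called either, where 0.759% were higher and 0.231% lower. There Fbxo5 was 2.51-fold lower and Bub1 1.86-fold lower, both beyond 2 technical SD, and Pttg1 was 1.58-fold higher. The second probe set of Bub1 differed less, with 259 against 287 in ovary and 211 against 261 in testis. The other probe sets of Pttg1 disagreed in ovary, with 1164 against 686 and 107 against 139. Neonatal ovary over neonatal testis had no call (1.4% of all genes higher and 0.962% lower), with Fbxo5 at -0.75 as the 1 member beyond 2 technical SD.

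From the neonatal to the adult stage the differences were larger. In adult over neonatal testis, Fbxo5 and Mad2l1 were called lower, by at least 5.94-fold and by 4.09-fold, and none higher. Of all genes 10.3% were lower and 10.7% higher in that comparison. In adult over neonatal ovary no member was called, where 1.89% of all genes were lower and 1.48% higher. Ttk was 2.80-fold lower, Bub1 2.48-fold and Espl1 2.05-fold, while Fbxo5 had a log2 ratio of 0.19. By its 1 probe set, the signal of Fbxo5 was thus about as low on the neonatal ovary array as on the adult one.

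**Figure D4:**
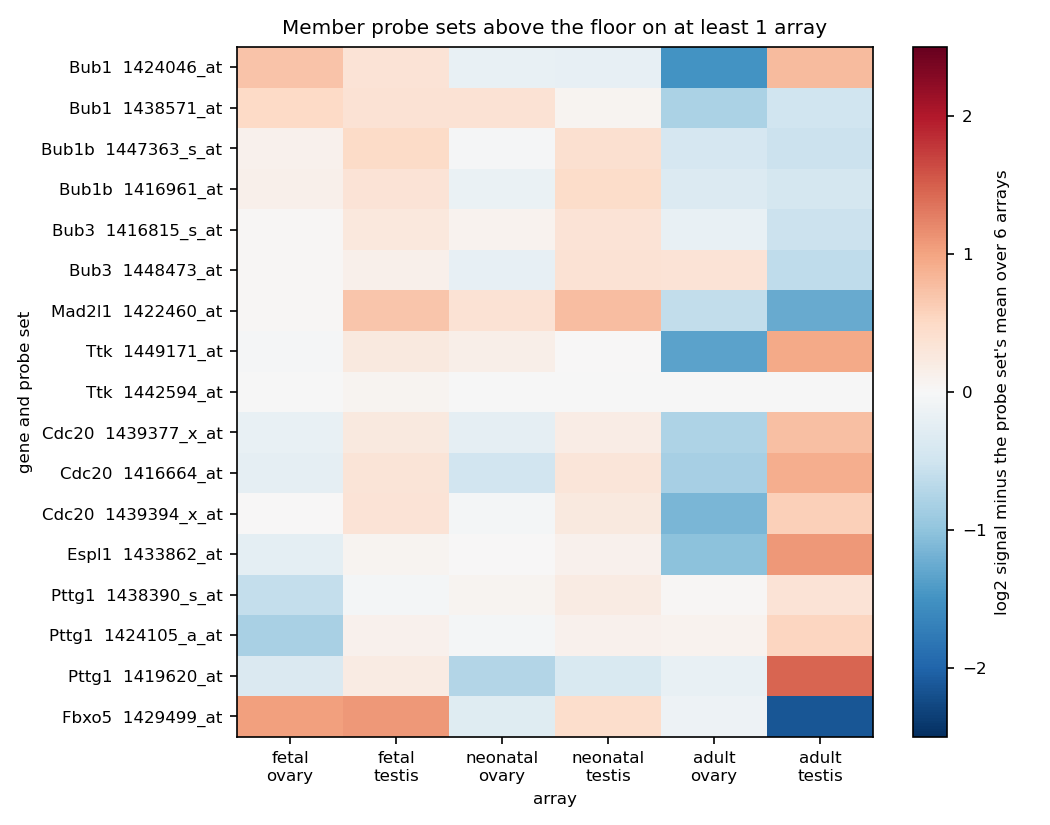
Log2 signal of each of the 17 member probe sets above the floor on at least 1 array (rows), minus that probe set's mean over the 6 arrays (columns), in colour from low (blue) to high (red). The 3 Cdc20 probe sets share a high adult testis and a low adult ovary, while the 2 Bub1 probe sets part in adult testis, at log2 ratios of 0.44 and -0.86 over fetal testis.

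The composition of the gonads differed between these arrays together with the members. In bulk RNA, fewer cells of a type and less RNA per cell cannot be told apart. The 8 spermatid markers had a summed signal of 68781 in adult testis, with none at the floor, against 222 in fetal testis, where Prm1, Prm2, Tnp1, Tnp2, Acrv1, Odf1 and Akap4 were at it. The 9 spermatocyte markers summed to 39459 in adult testis and 1510 in fetal testis, and to 612 in adult ovary and 7270 in fetal ovary. In fetal ovary Ccna1, Pgk2, Ldhc and Piwil1 were at the floor, while Sycp3, Smc1b, Sycp1, Spo11 and Hspa2 had 3715, 1962, 720, 430 and 350. The 10 oocyte markers summed to 11075 in adult ovary, with none at the floor, and to 774 in fetal ovary, with all but Gdf9 and Figla at it. Of these 10, 7 were called higher in adult ovary, where 2.02% of all genes were. Figla was called lower there, with 87.0 against 352, where 1.68% of all genes were. The 6 luteal markers on the arrays, of which Star, Cyp11a1 and Hsd3b1 are also on the Leydig list, summed to 37159 in adult ovary and 1040 in fetal ovary, and the 8 granulosa markers, of which Amh and Fshr are also on the Sertoli list, to 32338 and 2680. Of the 6 general germ cell markers, Ddx4, Dazl, Mael, Tex101 and Taf7l were called lower in adult than in fetal ovary, whereas Dppa3 had 685 in adult ovary and 253 in fetal ovary. The 5 Leydig cell markers on the arrays summed to 4937 in adult testis and 22503 in fetal testis, with 3 of 5 called lower, and to 27959 in adult ovary and 537 in fetal ovary. The part of these shifts in the member values was not tested.

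Other genes of cell division give the setting for the members. Of 13 other proliferation genes, 6 were called lower in adult than in fetal testis (Mki67 and 5 subunits of the replicative Mcm helicase), none higher, and the median log2 ratio was -1.45. Mki67, a nuclear protein of cycling cells, had 606 in adult testis and 3852 in fetal testis. In adult over fetal ovary none of the 13 was called and the median was -0.95. The summed signal of the 13 was 18046 in adult testis and 20548 in adult ovary, against 39831 in fetal testis and 37857 in fetal ovary, and arrays of whole organs do not show which cells divide. The members had medians of 0.38 in testis and -0.65 in ovary, and all genes above the floor -0.37 and -0.05, which are also the values to set beside the lists that follow. The counts of called genes in these lists stand beside 11.1% of all genes lower and 10.3% higher in adult over fetal testis, and 1.68% lower and 2.02% higher in adult over fetal ovary. The lists were given by the main scaling only. Scaling to the hybridization controls raises testis ratios together, as for Bub1 from 0.44 to 1.42, so list medians and calls near the limit depend on it. The 6 called proliferation genes had log2 ratios between -3.09 (Mcm4) and -2.19 (Mcm2) in testis. Aurkb, Knl1 and Plk1 stand in more than 1 list.

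Among 12 other checkpoint genes, the kinase gene Haspin was called higher in adult testis, with 3840 against 119 in fetal testis, a ratio of 32.3, and none was called lower (median -0.10). Trip13, an ATPase that disassembles Mad2 complexes, had 361 against 1393, a 3.86-fold lower signal, where Mad2l1 was 3.87-fold lower. In adult over fetal ovary none of the 12 was called, with a median of -0.63 and Zwilch, of the dynein-recruiting complex at kinetochores, at 312 against 853. The 10 outer kinetochore genes had no call in either comparison, with medians of -0.97 in testis and -0.82 in ovary. Nuf2, which binds microtubules in the Ndc80 complex, was called lower in adult ovary than in adult testis, with 424 against 1975.

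The 14 subunits of the APC/C itself had a median log2 ratio of -1.21 in adult over fetal testis, with 1 called lower (Cdc23, 119 against 1179) and none higher. Anapc1 and Cdc16 had 351 against 1216 and 946 against 3219, short of a call. Anapc10, Anapc15 and Anapc11 went the other way, with log2 ratios of 1.12, 0.54 and 0.12. Of 5 partners, Usp44, a deubiquitinase linked to the checkpoint, had 2509 in adult testis and was at the floor in fetal testis, at least 33.3-fold higher. Ube2d1, a ubiquitin-conjugating enzyme, was called lower, with 98.5 against 620. Fzr1 (Cdh1), the activator that replaces Cdc20 late in mitosis, had 1416 against 430, and Ube2c, the conjugating enzyme of the APC/C, 614 against 2303. In adult over fetal ovary no subunit and no partner was called (medians -0.37 and -0.23).

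Of 14 APC/C substrates on the arrays, 13 with a ratio in testis, Nek2, a centrosome kinase, was called higher in adult than in fetal testis with 3620 against 569, and Ccna2, Rrm2 and Tk1 were called lower (median -0.47). Ccna2 (cyclin A) had 181 against 1726. Tk1, an enzyme of thymidine salvage, was at the floor in adult testis against 874 in fetal testis, at least 11.6-fold lower. In adult over fetal ovary Tk1 alone was called lower, with 188 against 755.

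**Figure D5:**
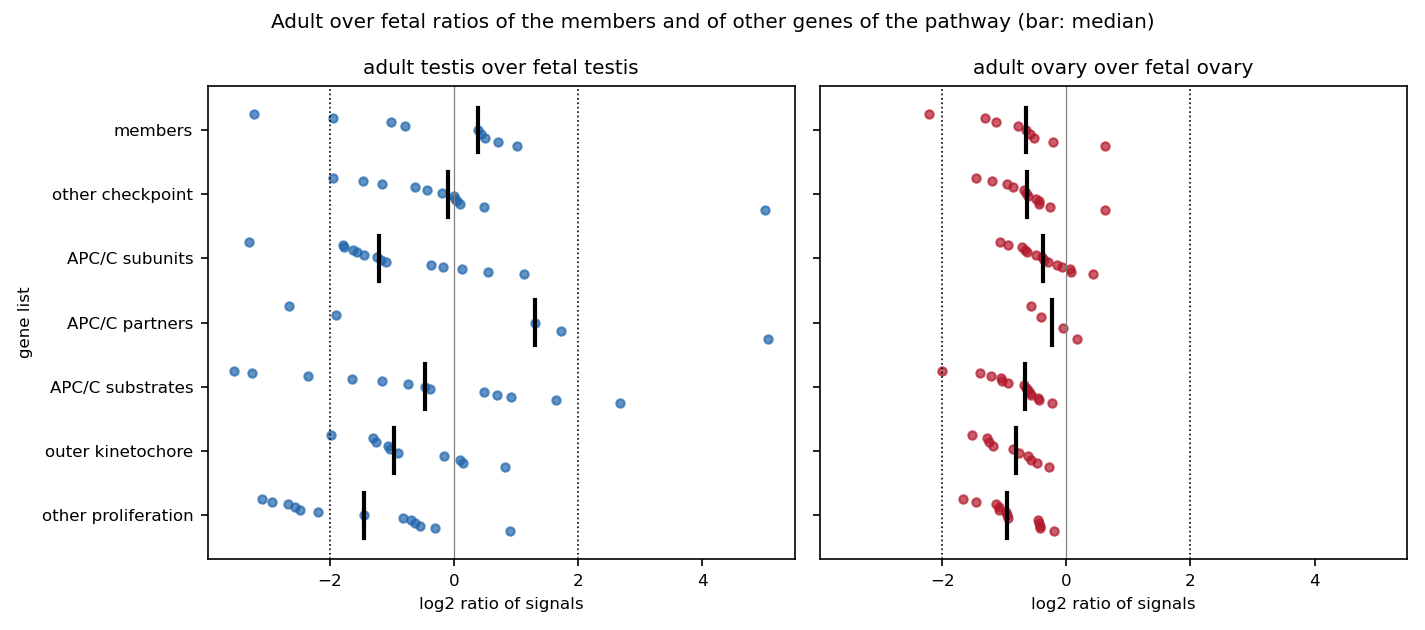
Log2 ratio of signals (x axis) for adult over fetal testis (left) and adult over fetal ovary (right), 1 point per gene above the floor on at least 1 array, for the 9 members and 6 lists of other genes (y axis), with black bars for medians and dotted lines at 4-fold. In testis the points spread widely, with Haspin and Usp44 at 5.01 and at least 5.06, and in ovary Bub1 and Tk1 alone pass the lower line, Bub1 at -2.21.

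The members were also set against each other and against 12457 other genes by shape over the 6 arrays, as the root mean square difference of log2 signals centred on each gene's mean. This is a description over 6 arrays that share the same scaling. Bub1b and Bub3 were the closest pair of members (0.14), followed by Ttk and Espl1 (0.19) and Cdc20 and Espl1 (0.22), and Espl1 and Fbxo5 the most distant (1.53). The genes nearest to Ttk were Nuf2 (0.09), Coprs (0.09) and Kif20a (0.10), with Kif20a, a kinesin of cytokinesis, at 1115 in adult testis and 238 in adult ovary. Those nearest to Espl1 were Jmjd6 (0.08), Ska1 (0.13), a kinetochore protein, and Poc1a (0.13). Nearest to Mad2l1 were Rpa2 (0.13), a subunit of the protein that coats unwound DNA, Xkr5 (0.16) and Ube2c (0.16). Fbxo5 was nearest to Pbx2 (0.13), Zfp462 (0.17) and Cul4b (0.22), and Bub1 to Jph4 (0.16), Tdrkh (0.21) and Spata5 (0.23). Cdc20 was nearest to Tmem183a (0.09), Dgkd (0.13) and Trmo (0.14), Pttg1 to Ncstn (0.12), Rbm48 (0.13) and Ciart (0.13), Bub1b to Gtse1 (0.06), Sae1 (0.08) and Scaf8 (0.08), and Bub3 to Ctc1 (0.06), Med4 (0.06) and Puf60 (0.08).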

How the data were processed

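RNA of mouse ovaries and testes was hybridized to 6 arrays of 45101 probe sets, 1 array per group. The deposited table holds 1 linear intensity value per probe set and array. Per the submitters' processing notes the tools include GCOS 1. Its role, the background correction, the probe summary and the scaling are not stated. Each array was multiplied by 1 factor to a common 2% trimmed mean, values were raised to a floor at the 50th percentile (75.3), and log2 ratios were taken. The platform annotation gave 34945 probe sets 1 symbol (932 had several, 9211 none), and each of 18193 genes was represented by its brightest probe set. Named genes are all members, up to 4 genes with the largest ratio per list and comparison, and the 3 genes nearest in shape to each member, among genes above the floor on at least 3 arrays. Anapc10, Anapc11 and Anapc15 are named as the APC/C subunits with a higher signal in adult than in fetal testis. A gene counted as called at a ratio of 4 or more. The technical SD is the robust SD of the difference between the log2 ratios of a gene's 2 brightest probe sets, divided by the square root of 2. The members, lists, comparisons and alternatives were chosen with earlier results of these data known. The call step was run on simulated arrays with known decreases of bright genes and less noise than the adult testis comparisons have. That run does not measure how reliable calls near the limit or against the floor are. Python 3.11.15, pandas 2.3.3 and numpy 2.4.6 were used. The 11 alternatives covered scaling, floor, choice of probe set and the ratio for a call. The number of arrays limits the precision.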

Additional observations from a re-analysis of the deposited data

Results flagged for a closer look

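Adult over fetal ratios ran in opposite directions in testis and ovary for 4 of the 9 members with a ratio, and these differences were not tested, with 1 array on each side. The share of all genes with opposite directions was not counted, so 4 of 9 is not read as a trait of the members. On the log2 scale, testis minus ovary, they were 2.64 for Bub1, 2.02 for Ttk, 1.79 for Espl1 and 1.08 for Cdc20. In testis all 4 ratios (0.44 for Bub1, 0.71 for Ttk, 0.50 for Cdc20 and 1.01 for Espl1) lay within 2 technical SD, which is 1.23 there. With the mean of its probe sets Bub1 had -0.21 in testis. The 3 probe sets of Cdc20 each showed the opposite directions. The second probe set of Bub1 did not, with log2 ratios of -0.86 in testis and -1.28 in ovary.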

How the results depend on the processing

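No paired analysis was possible because each group has 1 array, and for the same reason no array could be left out. Of 54 log2 ratios of members under 9 alternatives, 437 of 486 values moved by less than the technical SD, 49 moved by more, no ratio called at 4-fold changed sign, and 16 smaller ones did. Quantile normalization left no member called higher in adult ovary over adult testis (0, against 1), with Fbxo5 at a log2 ratio of 1.94, against 2.01. Scaling to the hybridization controls also gave 0 higher there (Fbxo5 at 1.63), with 4 lower against 3, and 1 member called higher (Espl1, against 0) in adult testis over fetal ovary. With the floor at the 75th percentile, 0 members were called lower in adult testis over fetal testis and 0 over fetal ovary, and in adult ovary over adult testis 0 were higher and 1 lower (against 3), a higher floor shortening every ratio against it. The mean of all probe sets gave 0 members lower in adult over fetal ovary and 1 in adult ovary over adult testis. The latter was Espl1, which has 1 probe set and so could not change under this alternative. At a ratio of 2 for a call, 1 member was higher and 3 lower in adult testis over fetal testis, 1 higher and 2 lower over fetal ovary, 3 lower in adult ovary over fetal ovary and 6 over fetal testis. Of all genes 17.1% were higher and 27.3% lower at that ratio in the first comparison, 17.4% and 27.2% in the second, and 6.65% lower in each of the last 2. At a ratio of 8, 0 were lower in adult over fetal ovary, and 0 higher and 0 lower in adult ovary over adult testis (all genes 0.511%, 3.7% and 7.3%). The cause of the other changes was not tested. Signal over background limits Fbxo43 on every array and Fbxo5 in adult testis.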

Other observations

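Mos, a kinase that holds the egg in meiotic arrest, passed the floor in adult ovary alone of the 6 arrays, with a signal of 147. Wee2, an oocyte kinase that restrains Cdk1, had 206 in adult ovary and 273 in neonatal ovary and did not reach the floor elsewhere. Cdc25b, a phosphatase that starts meiosis again in mouse oocytes, was called lower in adult than in fetal testis, with 101 against 891, and had 454 in adult ovary and 912 in fetal ovary. Cks2, a subunit of cyclin-dependent kinases needed in meiosis I, had 4346 in adult testis and 4379 in fetal testis.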
